A study of Mus musculus with 24 samples.

Results

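The segments described here are the V segments TRGV1, TRGV2 and TRGV3 and the J segments TRGJ2 and TRGJ4 of the mouse T cell receptor γ locus (Tcrg). They were taken by name from the tables of the 6 Tcrg libraries and make up 5 of the 10 segments listed there, which hold 7 V rows and 3 J columns; the whole series names 205 segments over 4 receptor chains. RNA of thymocytes, the developing T cells of the thymus, came from mice of the C57BL/6 strain aged between 4 and 12 weeks. In each genotype 3 gamma libraries were made, wild type on one side and, on the other, a mutant whose sample labels read Satb1-/- while the series design names it Satb1cKO, a conditional knockout. Satb1 is a nuclear protein that binds and organises chromatin in thymocytes. The promoter or Cre line behind the deletion is not given in the labels. Nor do they say whether the libraries of a genotype came from separate mice, so the p-values below measure the spread between libraries, which may be technical. The tables hold receptor segments alone, so neither Satb1 nor markers of thymocyte stages could be checked in them.

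The γ chain is assembled by joining a V to a J segment, which is then spliced to the constant (C) gene beside that J. The mouse locus is built of 4 cassettes, each with its own J and C. TRGV2 lies with TRGJ2, TRGV3 with TRGJ3 and TRGV1 with TRGJ4, while TRGV4, TRGV5, TRGV6 and TRGV7 share TRGJ1. The chain of TRGV1 and TRGJ4 is a common one of γδ T cells in adult lymphoid organs, and γ genes are also rearranged in thymocytes that go on to make an αβ receptor. A V and a J in the same orientation, V first, join by deleting the DNA between them, and a pair in opposite orientation joins by inversion.

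All 10 listed segments were found by name in the GENCODE M21 annotation (build GRCm38) on chromosome 13. TRGV1 spans chr13:19339989-19340454 and its partner TRGJ4 chr13:19342152-19342212, both on the forward strand with 1697 bases between them. TRGV2 spans chr13:19336573-19337167 and TRGJ2 chr13:19311245-19311304, both on the reverse strand with 25268 bases between them. TRGV3 lies at chr13:19242845-19243301 on the forward strand. Each V is annotated as a leader exon and a V exon, and each J as a single coding exon. As the map of the locus shows, the TRGV2 cassette points against the other 3, so that TRGV2 faces TRGJ1 and TRGJ4 in the opposite orientation, as do TRGV1 and TRGV3 towards TRGJ2.

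**Figure D1:**
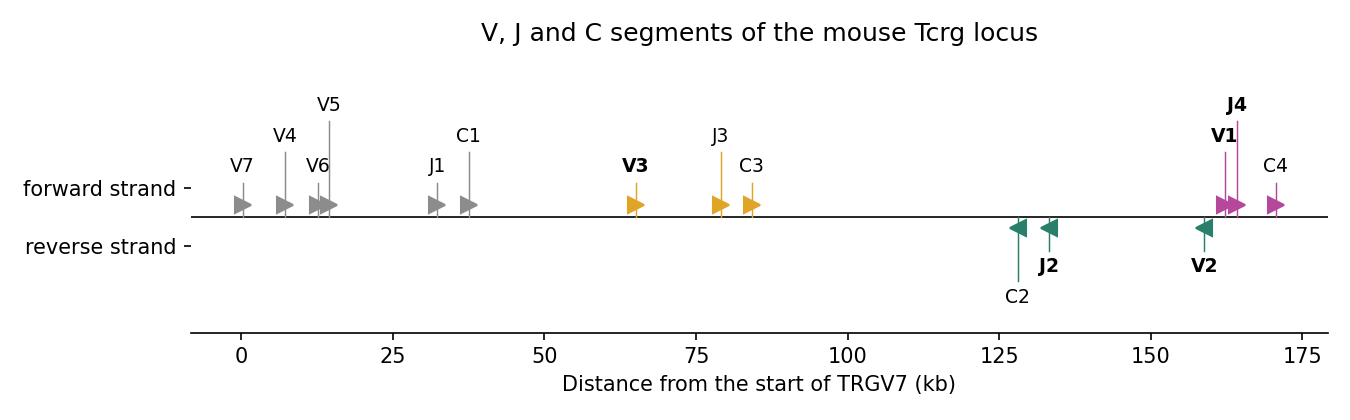
Map of the V, J and C segments of the Tcrg locus, with distance from the start of TRGV7 in kilobases on the horizontal axis; arrowheads give the direction of transcription, colours the 4 cassettes, and bold names the 5 segments described. TRGV2 and TRGJ2 lie on the reverse strand, and TRGV1 and TRGJ4 stand side by side at the far end of the locus.

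How far the members can be told apart rests on their sequence, so the J exons are shown with TRGJ1 and TRGJ3 for comparison. They are printed from the GENCODE M21 transcripts (GRCm38, sense strand). Capitals in TRGJ1 and TRGJ3 mark bases that differ from TRGJ2 at the same position; TRGJ4 is 1 base longer and is printed without marks.

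TRGJ2: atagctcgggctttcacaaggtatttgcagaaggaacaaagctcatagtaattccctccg
TRGJ1: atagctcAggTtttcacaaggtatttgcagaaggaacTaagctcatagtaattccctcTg
TRGJ3: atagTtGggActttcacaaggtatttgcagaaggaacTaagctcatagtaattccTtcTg
TRGJ4: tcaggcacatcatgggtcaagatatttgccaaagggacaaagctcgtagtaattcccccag

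TRGJ1 differs from TRGJ2 in 4 of 60 bases and TRGJ3 from TRGJ2 in 6, and the longest stretch shared by these 3 J exons is 26 bases. TRGJ4 stands apart, with 68.9% identity to TRGJ2 in a global alignment. TRGJ3 is not a column of the tables and was not analysed here.

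The V exons of the 3 members are near copies of each other. TRGV1 and TRGV2 were 95.1% identical over 307 aligned positions, TRGV1 and TRGV3 95.8%, and TRGV2 and TRGV3 94.5%. Their last 60 bases, the part next to the junction, are printed with capitals where TRGV1 and TRGV3 differ from TRGV2.

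TRGV2: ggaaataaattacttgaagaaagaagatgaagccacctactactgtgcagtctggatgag
TRGV1: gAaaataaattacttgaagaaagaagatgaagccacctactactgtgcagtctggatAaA
TRGV3: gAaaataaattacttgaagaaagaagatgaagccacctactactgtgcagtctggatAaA

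In this stretch TRGV1 and TRGV3 each have 3 differences from TRGV2 and 0 from each other. How reads were assigned to segments is not given in the sources used here. The split among TRGV1, TRGV2 and TRGV3, and between TRGJ1 and TRGJ2, is uncertain to that extent.

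Each value below is a share, the percentage of a library's V–J assignments, and each assignment names 1 V and 1 J, so segment length does not enter. The libraries were amplified from a reverse primer in the constant region, and each J is spliced to its own constant gene. The first exon of TRGC4 was 82.1% identical to that of TRGC1, against 97.3% for TRGC2. The primer sequence is not in the labels, and whether the 4 constant genes were amplified alike was not tested. Levels of different J segments, and of V segments joined to different J segments, are therefore compared below as they stand in these libraries. The tables give no counts, so depth is unknown. The smallest share above 0 lay between 0.225% and 0.990% in the 6 libraries and is their resolution. It was 0.629%, 0.885% and 0.990% in wild-type replicates 1, 2 and 3, and 0.225%, 0.730% and 0.312% in knockout replicates 1, 2 and 3. Shares within a single segment, such as TRGV1 or TRGJ4, move in coarser steps than these. The libraries numbered 1 stood apart in both genotypes, with 6.29% (wild type) and 8.31% (knockout) of assignments in pairs across cassettes, against 19.8% to 31.0% in the other 4. The labels name no batch, and the differences that move most with these libraries are given without them as well. In such bulk RNA, fewer cells of a type and less RNA per cell cannot be told apart.

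The 3 V segments made up most of the V–J assignments in every library. TRGV1, TRGV2 and TRGV3 together held 81.1%, 80.5% and 85.1% of the wild-type libraries and 75.5%, 82.5% and 75.4% of the knockout libraries. The groups overlapped, with means of 82.3% ± 2.51 and 77.8% ± 4.06 (SD, n = 3 each; exact two-sided permutation p = 0.3). Adjusted over the 8 single values tested, p was 1 for each of them, and 3 against 3 libraries cannot give a raw p below 0.1.

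TRGV2, whose cassette points against the rest of the locus, was the most used V segment in all 6 libraries. It held 64.2%, 66.4% and 66.3% of the wild-type libraries and 62.0%, 59.9% and 60.7% of the knockout libraries. All 3 knockout libraries lay below all 3 wild-type libraries, with means of 60.9% ± 1.09 against 65.6% ± 1.27 (SD, n = 3 each) and a difference, knockout minus wild type, of -4.75 percentage points. Of the 7 V segments tested 14.3% (1 segment, TRGV2 itself) had groups that did not overlap. With limma on log2(percent + 0.225) the difference did not pass: the log2 fold change, knockout against wild type, was -0.11 (95% interval -0.31 to 0.09, adjusted p = 0.533). limma draws part of each segment's spread from all 7 V segments, rare ones included. This interval is therefore not the spread of the TRGV2 libraries alone. With V segments averaging under 1% left out, the limma adjusted p of TRGV2 was 0.134. The direction was the same in each of the 6 fits that left out 1 library, with log2 fold changes between -0.12 and -0.10.

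TRGV1, the V segment of the TRGJ4 cassette, came far below TRGV2. It held 17.0%, 14.2% and 16.8% in wild type, against 12.6%, 22.6% and 14.3% in the knockout. The groups overlapped, and knockout replicate 2 was the highest of all 6 libraries. The means were 16.0% ± 1.59 and 16.5% ± 5.37, with a log2 fold change of 0.00 (95% interval -0.67 to 0.68, limma adjusted p = 0.987). Within a library the share of TRGV2 was 2.65 to 4.93 times that of TRGV1.

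TRGV1 and TRGV4, the main V segment of the TRGJ1 cassette, were neighbours in the order of levels and could not be ranked. TRGV1 was the higher of these in 3 libraries and the lower in 3, with a mean difference of -1.06 ± 6.13 percentage points (SD over 6 libraries, exact sign-flip p = 0.688, adjusted 0.688). TRGV4 was also the V segment nearest to TRGV1 in share, with a mean absolute difference of 5.08 percentage points over the 6 libraries; the next was TRGV6, at 15.1. TRGV2 had no near neighbour, TRGV4 and TRGV1 being 45.9 and 47.0 percentage points away.

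TRGV3 was rare. It was listed at 0 in wild-type replicates 1 and 2 and in knockout replicate 2, and held 1.98% in wild-type replicate 3, 0.899% in knockout replicate 1 and 0.312% in knockout replicate 3. The value of knockout replicate 3 is the smallest that library lists, so TRGV3 lay close to the resolution of the tables. The mean share was 0.660% ± 1.14 in wild type, against 0.403% ± 0.456 in the knockout (n = 3 each), while the log2 fold change had the opposite sign, 0.09 (95% interval -3.02 to 3.20, limma adjusted p = 0.987). The log2 value was -0.09 with the pseudocount of the coarsest library, -1.02 without the libraries numbered 1 and 1.64 with each listed pair counted once, so no direction is given. TRGV5 was closest to TRGV3 in share, at a mean absolute difference of 0.217 percentage points, followed by TRGV7 at 1.21. TRGV5 was above 0 in 2 of the 6 libraries. Like TRGV3 it was listed at 0 in wild-type replicates 1 and 2 and knockout replicate 2, so this nearness rests in part on shared zeros.

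Among the J segments the order was TRGJ2, then TRGJ1, then TRGJ4 in all 6 libraries. TRGJ2 held 61.0%, 50.4% and 64.4% in wild type, against 62.9%, 56.2% and 60.1% in the knockout. The knockout values lay inside the wild-type range (58.6% ± 7.26 against 59.8% ± 3.37, log2 fold change 0.03, 95% interval -0.38 to 0.45, limma adjusted p = 0.930). The share closest to it among V segments was that of TRGV2, at a mean absolute difference of 4.37 percentage points. Both shares count the pair of TRGV2 with TRGJ2, a mean of 53.1% of the library, so they are not independent.

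TRGJ4 held 18.9%, 10.6% and 12.9% in wild type, against 12.6%, 16.8% and 11.5% in the knockout, again within the wild-type range. The means were 14.1% ± 4.26 and 13.6% ± 2.78, with a log2 fold change of -0.03 (95% interval -0.60 to 0.55, limma adjusted p = 0.930) that was 0.25 without the libraries numbered 1. TRGV1 was its nearest V segment, at 3.01 percentage points, and both shares count the pair of TRGV1 with TRGJ4. TRGJ1 was above TRGJ4 by 13.1 ± 9.01 percentage points and higher in 6 of 6 libraries (exact sign-flip p = 0.0312, the smallest possible with 6 libraries, adjusted p = 0.0469 over 6 such contrasts). These 6 contrasts were chosen after the values were seen and 4 of them share that smallest p, so it restates the 6 of 6 and is no independent test. The contrast no longer passed when each listed pair was counted once (11.3 percentage points). That count measures how many V partners of a J were listed, not its use, so it does not test this contrast. TRGJ2 and TRGJ4 together held 72.7% ± 10.2 in wild type, against 73.4% ± 1.96 in the knockout (n = 3 each, exact permutation p = 1). The difference of 0.662 percentage points was 3.18 without the libraries numbered 1.

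Of the 3 member V segments 0 were called, beside a background of 0% of the 7 V segments tested. Of the 2 member J segments 0 were called, beside 0% of the 3 tested, and 0% of those 3 had groups that did not overlap. The median log2 fold change of the 3 member V segments was 0.00, the same as over all 7. With limma, 0 segments of either kind had an unadjusted p under 0.05.

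**Figure D2:**
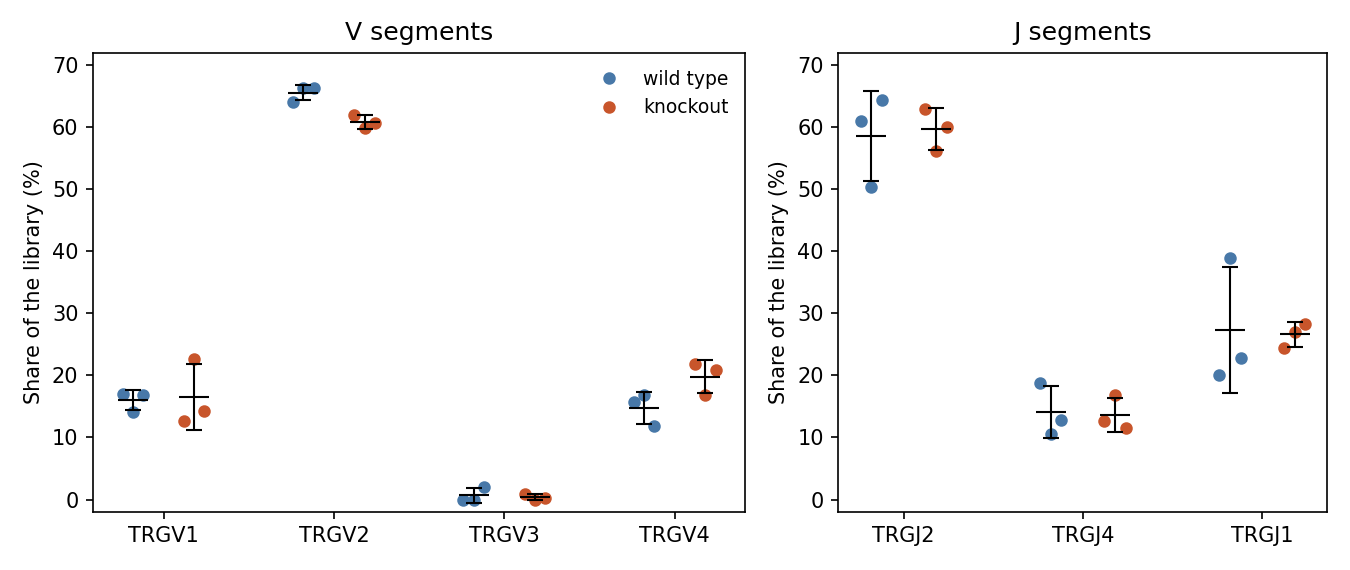
Share of each library (percent) held by TRGV1, TRGV2, TRGV3 and, for comparison, TRGV4 (left), and by TRGJ2, TRGJ4 and TRGJ1 (right); points are libraries, bars the mean ± SD of 3 libraries per genotype. TRGV2 is the one segment shown whose knockout libraries (59.9% to 62.0%) lie wholly below the wild-type libraries (64.2% to 66.4%).

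The question of which J each V was joined to was addressed next. TRGV2 was joined mainly to TRGJ2 of its own cassette, and this pair was the largest in all 6 libraries. It held 59.7%, 46.0% and 56.4% of the wild-type libraries and 58.9%, 47.4% and 49.8% of the knockout libraries, which overlapped. TRGJ2 made up 93.1%, 69.3% and 85.1% of TRGV2 in wild type, against 94.9%, 79.3% and 82.1% in the knockout. Both libraries numbered 1 were the highest of their genotype, and the groups overlapped (82.5% ± 12.1 and 85.4% ± 8.35, n = 3 each, exact permutation p = 0.9).

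TRGV1 was joined mainly to TRGJ4, and this pair held 15.7%, 7.08% and 10.9% of the wild-type libraries and 9.21%, 15.3% and 9.35% of the knockout libraries. The groups overlapped, with the highest and the lowest value both in wild type. TRGJ4 made up 92.6%, 50.0% and 64.7% of TRGV1 in wild type, against 73.2%, 67.7% and 65.2% in the knockout. These groups overlapped too, with means of 69.1% ± 21.6 and 68.7% ± 4.09 (n = 3 each, exact permutation p = 1). Without the libraries numbered 1 the difference, knockout minus wild type, went from -0.375 to 9.13 percentage points (exact permutation p = 0.333, the smallest that 2 against 2 allow).

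The partners of these V segments differed within every library, although their V exons are near copies. The TRGJ4 share of TRGV1 exceeded that of TRGV2 by 66.1 ± 13.7 percentage points, in 6 of 6 libraries. The TRGJ2 share of TRGV2 exceeded that of TRGV1 by 63.0 ± 12.2 percentage points, likewise in 6 of 6. Within TRGV1, TRGJ4 exceeded TRGJ2 by 47.9 ± 18.6 percentage points in 6 of 6. These 3 contrasts were likewise chosen after the values were seen, and their exact sign-flip p of 0.0312 (adjusted p = 0.0469) again restates the 6 of 6. Counting each listed pair once cannot show them, since TRGV2 was listed with all 3 J segments, and TRGV1 with TRGJ2 and TRGJ4, in all 6 libraries.

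Relative to the product of its V and J shares, the TRGV1 pair with TRGJ4 held 4.91, 4.71 and 5.03 times as much in wild type, against 5.82, 4.04 and 5.66 times as much in the knockout. For TRGV2 with TRGJ2 the ratio was 1.53, 1.37 and 1.32 in wild type, against 1.51, 1.41 and 1.36 in the knockout, a ratio that cannot be large since TRGV2 and TRGJ2 each exceeded 50% in all libraries. For TRGV1 with TRGJ4 the ratio has a ceiling too, set by the larger of the V and J shares. That larger share was 12.6% in knockout replicate 1, where the ratio was highest, and 22.6% in knockout replicate 2, where it was lowest. The ratio of TRGV2 with TRGJ4 stayed between 0.116 and 0.377, and that of TRGV1 with TRGJ2 between 0.121 and 0.459.

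**Figure D3:**
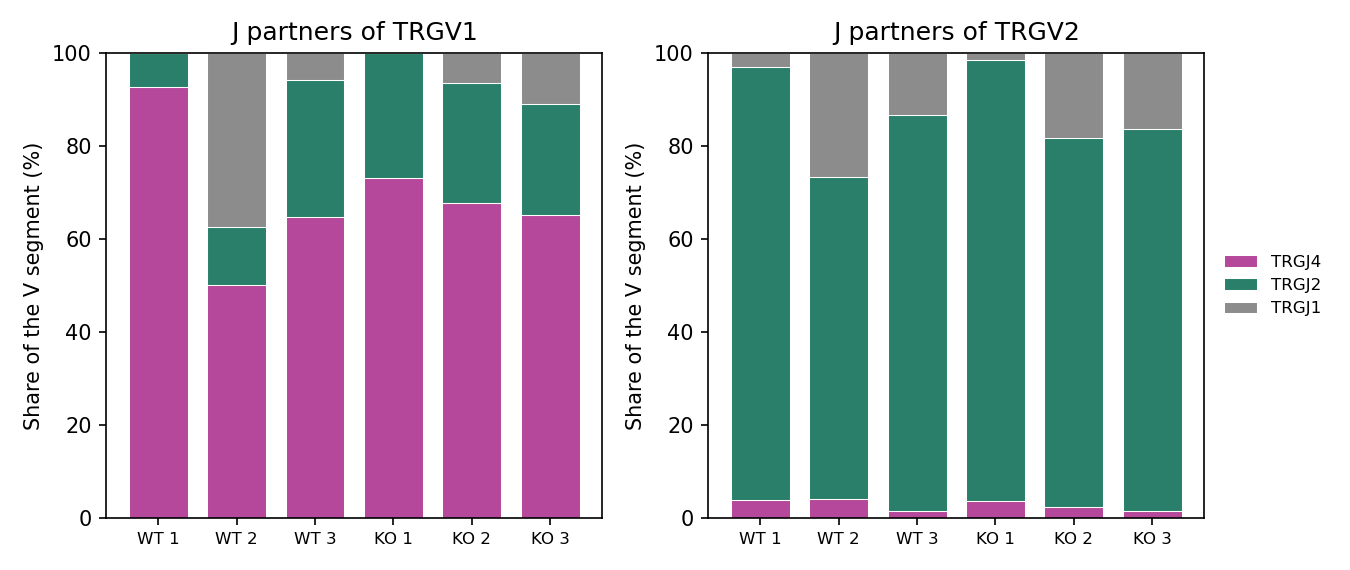
J partners of TRGV1 (left) and TRGV2 (right) as a percentage of that V segment, 1 bar per library (WT wild type, KO knockout, with replicate number). TRGJ4 makes up between 50.0% and 92.6% of TRGV1, and TRGJ2 between 69.3% and 94.9% of TRGV2.

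Every listed TRGV3 pair counts as crossing cassettes, since TRGJ3 is not a column. Pairs that cross cassettes made up 20.7% ± 13.5 of the 3 member V segments in wild type, against 18.4% ± 7.53 in the knockout. The largest of these was TRGV2 with TRGJ1, which lie in opposite orientation with 126170 bases between them. It held 1.89%, 17.7% and 8.91% of the wild-type libraries and 0.899%, 10.9% and 9.97% of the knockout libraries. The libraries numbered 1 were the lowest in both genotypes, and the other 4 lay between 8.91% and 17.7%.

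TRGV1 with TRGJ1 was listed at 0 in both libraries numbered 1 and held 5.31% and 0.990% in wild-type replicates 2 and 3 and 1.46% and 1.56% in knockout replicates 2 and 3. TRGJ1 lies upstream of TRGV1 in the same orientation, with 129586 bases between them. On 1 chromosome with no earlier rearrangement, that order gives neither a deletional nor an inversional join. The value of 0.990% is the smallest that wild-type replicate 3 lists. TRGV3 with TRGJ1, the other pair in that order, was listed at 0 in all 6 libraries. How the TRGV1 pair came to be listed was not tested.

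TRGV1 with TRGJ2, in opposite orientation, was above 0 in all 6 libraries. It held 1.26%, 1.77% and 4.95% in wild type, against 3.37%, 5.84% and 3.43% in the knockout, and the groups overlapped. As a part of TRGV1 it was 7.41%, 12.5% and 29.4% in wild type, against between 23.9% and 26.8% in the knockout. TRGV2 with TRGJ4, also in opposite orientation, held 2.52%, 2.65% and 0.990% in wild type, against 2.25%, 1.46% and 0.935% in the knockout. The 0.990% is the smallest value that wild-type replicate 3 lists. Whether TRGV1 and TRGV2 were taken for each other in some of these assignments was not tested.

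TRGV3 was listed with TRGJ2 at 0.990% in wild-type replicate 3 and 0.225% in knockout replicate 1, and with TRGJ4 at 0.990% in wild-type replicate 3, 0.674% in knockout replicate 1 and 0.312% in knockout replicate 3. Apart from the 0.674%, each of these is the smallest value its library lists.

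Summed by arrangement, the 8 pairs of all segments in opposite orientation held 5.66%, 24.8% and 17.8% in wild type, against 7.19%, 21.2% and 21.2% in the knockout. Pairs across cassettes in the same orientation with V first held at most 1.25% in any library. The difference between genotypes in the share of pairs across cassettes was -0.712 percentage points (19.0% ± 12.4 in wild type, 18.3% ± 8.68 in the knockout, exact permutation p = 1). Without the libraries numbered 1 it was -2.08. The TRGJ1 share of the 3 member V segments together was 14.2% ± 13.3 and 10.5% ± 8.07 (exact permutation p = 0.8), and the difference of -3.67 percentage points became -4.93 without them.

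The TRGJ1 share of TRGV2 was above that of TRGV1 in 5 of 6 libraries, with wild-type replicate 2 the exception (26.7% of TRGV2 and 37.5% of TRGV1). The mean difference of 3.08 ± 7.73 percentage points was smaller than its spread (exact sign-flip p = 0.375, adjusted p = 0.45).

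**Figure D4:**
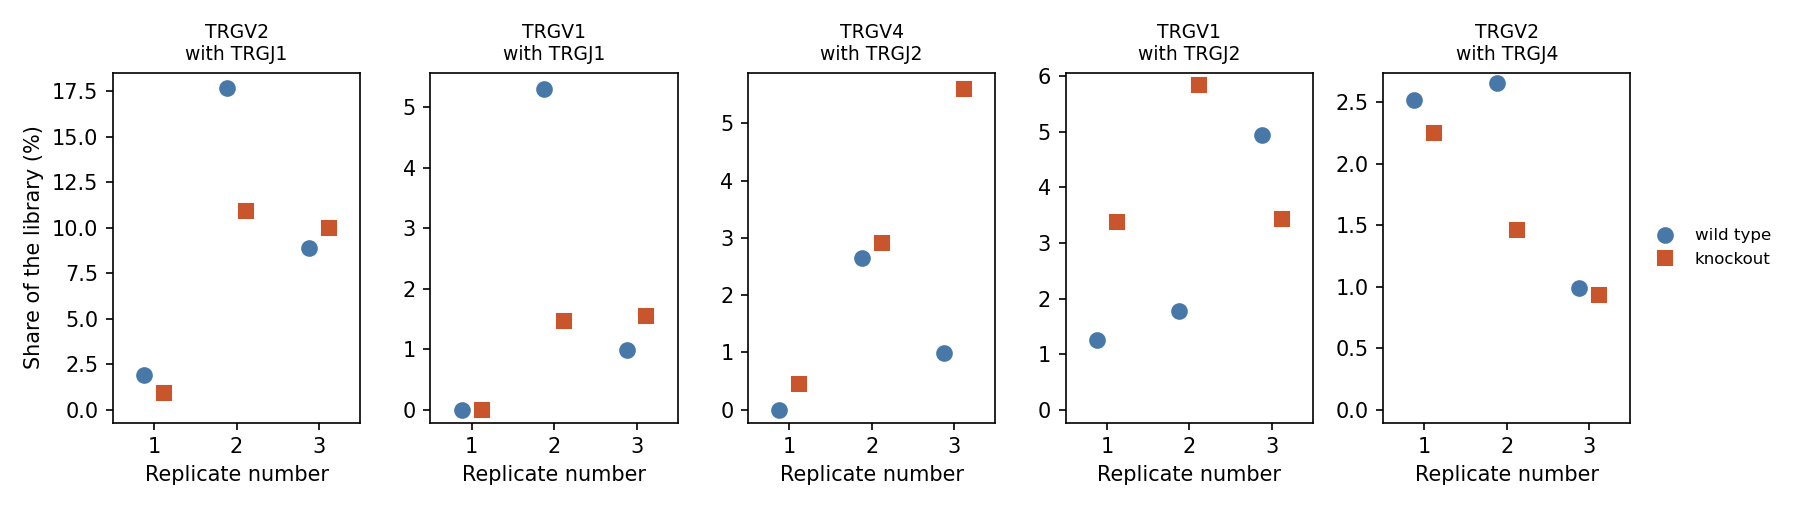
Share of the library (percent) of 5 pairs across cassettes by replicate number, circles for wild type and squares for knockout; each panel has its own vertical scale. TRGV2 with TRGJ1 stood at 1.89% and 0.899% in the libraries numbered 1 and between 8.91% and 17.7% in the others, and TRGV1 with TRGJ1 was at 0 in both libraries numbered 1. TRGV2 with TRGJ4 did not follow this, at 2.52% and 2.25% in the libraries numbered 1 and between 0.935% and 2.65% in the others.

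Seen from the J segments, TRGJ2 was mainly a partner of TRGV2, which made up 97.9%, 91.2% and 87.7% of it in wild type, against 93.6%, 84.4% and 82.9% in the knockout. The groups overlapped, with means of 92.3% ± 5.20 and 87.0% ± 5.77 (n = 3 each, exact permutation p = 0.3). TRGV1 made up 2.06% to 10.4% of TRGJ2 over the 6 libraries. TRGV4 was listed at 0 in wild-type replicate 1 and made up 5.26% and 1.54% of TRGJ2 in wild-type replicates 2 and 3 and 0.714%, 5.19% and 9.33% in knockout replicates 1, 2 and 3. It was above TRGV1 in wild-type replicate 2 and knockout replicate 3 and below it in the other 4. Of the library TRGV4 with TRGJ2 held 0.449% in knockout replicate 1 and 5.61% in knockout replicate 3, so this pair too was lowest in the libraries numbered 1. The pair of TRGV2 with TRGJ4 was not lowest there, with 2.52% in wild-type replicate 1 and 2.25% in knockout replicate 1. TRGV5 was listed with TRGJ2 in wild-type replicate 3 alone (0.990%), TRGV6 in knockout replicate 3 alone (1.25%), and TRGV7 in none of the 6.

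TRGJ4 was mainly a partner of TRGV1, which made up 83.3%, 66.7% and 84.6% of it in wild type, against 73.2%, 91.3% and 81.1% in the knockout. These overlapped as well (78.2% ± 10.0 and 81.9% ± 9.07, n = 3 each, exact permutation p = 0.7). Without the libraries numbered 1 the difference went from 3.66 to 10.6 percentage points (exact permutation p = 0.667). TRGV2, which faces TRGJ4 in the opposite orientation with 4984 bases between them, made up 13.3%, 25.0% and 7.69% of TRGJ4 in wild type, against 17.9%, 8.70% and 8.11% in the knockout. These shares are coarse: TRGJ4 held 10.6% of wild-type replicate 2, where the smallest value was 0.885%. The 7.69% of wild-type replicate 3 is the smallest value that library lists, 0.990%. TRGV4 was a partner of TRGJ4 in 4 libraries, at 0.449% to 0.885% of the library, and TRGV7 in knockout replicate 3 alone, at 0.312%. TRGV5 and TRGV6 were listed with TRGJ4 at 0 in all 6 libraries.

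**Figure D5:**
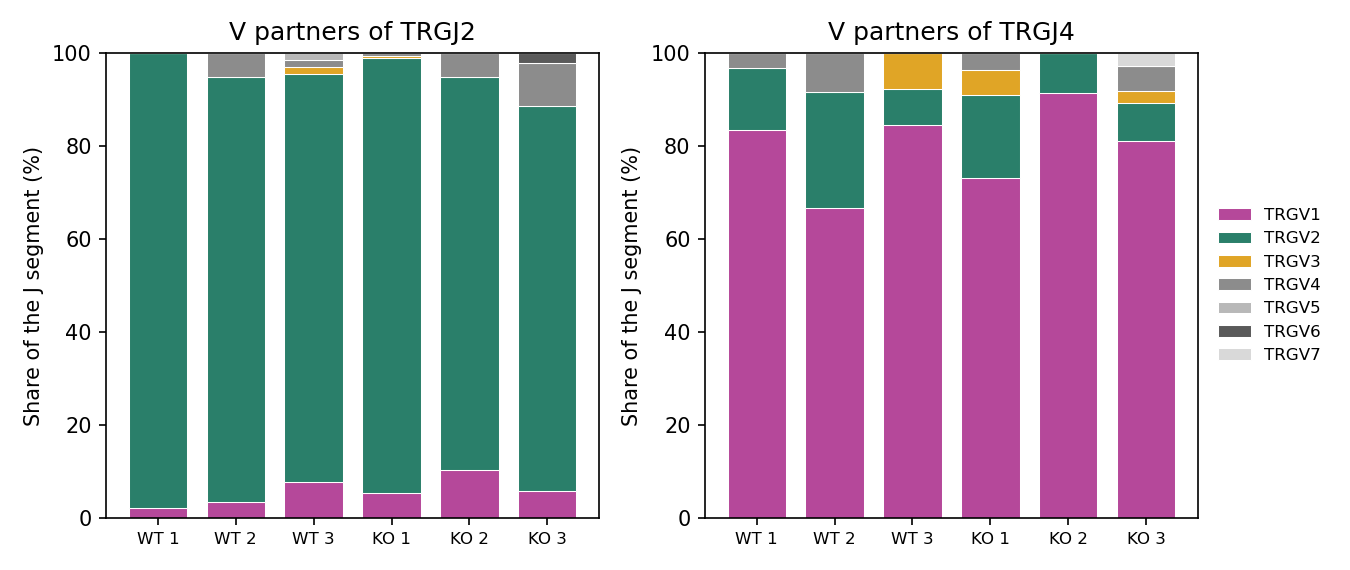
V partners of TRGJ2 (left) and TRGJ4 (right) as a percentage of that J segment, 1 bar per library (WT wild type, KO knockout, with replicate number). TRGV2 makes up between 82.9% and 97.9% of TRGJ2, and TRGV1 between 66.7% and 91.3% of TRGJ4.

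Of the 17 pairs that hold a member, 13 were above 0 in at least 1 library, 5 in all 6, and 12 had a mean share of at least 0.1% and were tested. With limma 0 of these 12 were called, beside a background of 0% of the 16 pairs tested, and 0% of those 16 had groups that did not overlap; 0 of the 16 had an unadjusted p under 0.05. The median log2 fold change of the 12 was -0.15, as over all 16, with 5 above 0 and 7 below. For TRGV1 with TRGJ2 the log2 fold change was 0.79 (95% interval -0.74 to 2.32, adjusted p = 0.898), and for TRGV2 with TRGJ1 -0.48 (95% interval -3.34 to 2.38, adjusted p = 0.898). Without the libraries numbered 1 they were 0.55 and -0.26. A rise of TRGV1 with TRGJ2 by more than 4-fold, and a change of TRGV2 with TRGJ1 by more than 4-fold in either direction, lay within these intervals.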

How the data were processed

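Total RNA of thymocytes was reverse transcribed from oligo(dT) with rapid amplification of the 5′ cDNA ends, amplified by touchdown PCR between an adaptor and the receptor's constant region, and sequenced in pairs of reads on an Illumina HiSeq, per the labels' protocols. Reads were processed with fastp, per the submitters' processing notes. The aligner, the segment caller, the build and any molecular identifiers are not named in the labels; whether reads or clonotypes were counted is not given in the sources used here. The deposited values are percent: the 21 V–J cells of each gamma table sum to 100. All 126 values were whole multiples of their library's smallest value above 0 within 0.001 of a multiple, but counts were not reconstructed and depth is unknown, so no counting intervals were computed.

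Groups came from the labels, and tables of the other chains were not analysed here. The members, the lists and the tests were chosen with earlier results of these data known. V segments, J segments and pairs averaging 0.1% or more entered limma 3.58.1 (R 4.3.3) on log2(percent + 0.225), the pseudocount being the smallest value of the finest library, with Benjamini-Hochberg adjustment over all features of a kind and calls at 0.05. Fold changes on this scale understate changes of low segments. For the 8 single values a permutation test, exact and two-sided, ran over the 20 arrangements of the libraries; for 6 contrasts within libraries, added after the values were seen, a two-sided exact sign-flip test was used. Named are the 5 members, their pairs above 0 and, by mean absolute difference, the nearest V segments. The limma step was tested on simulated data, with changes far larger than those of the member segments. The simulation did not hold shares to a fixed sum, and it does not show whether changes as small as these would be called. Sequences and positions come from GENCODE M21, and identities from global alignments with Biopython 1.88. Python 3.11.15, numpy 2.4.6, pandas 2.3.3 and matplotlib 3.10.9 were used. Alternatives were other pseudocounts and filters, centring, leaving out libraries, a replicate block, counting each pair once, and, for single values and contrasts, dropping pairs under 0.990%.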

Additional observations from a re-analysis of the deposited data

How the results depend on the processing

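With limma 0 V segments, 0 J segments and 0 pairs were called under every alternative run, the smallest adjusted p being 0.134, 0.107 and 0.314. Whether equal replicate numbers pair the libraries could not be decided. Residuals of same-numbered libraries correlated at 0.529, 0.375 and -0.385, and those of unlike-numbered libraries at -0.745 to 0.672. With 3 libraries per genotype such correlations cannot tell pairing from its absence. With the replicate number as a block limma called 0 features of each kind. All alternatives for the contrasts within libraries, and leaving out both libraries numbered 1, were chosen after seeing the data. When each pair was counted once, these differences between genotypes turned in sign: TRGV1 log2 -0.15, TRGJ4 log2 0.034, share across cassettes 2.68 and TRGV1 share of TRGJ4 -1.67 percentage points. So did the contrasts of TRGV1 with TRGV4 (1.96) and of the TRGJ2 share of TRGV2 with that of TRGV1 (-5.56). TRGJ1 above TRGJ4 (11.3), and the TRGJ4 share of TRGV1 above that of TRGV2 (5.56) or above its TRGJ2 share (0), no longer passed. For the J partners of TRGV1 and TRGV2 that count is fixed by construction, since nearly all their pairs were listed in every library, and it says nothing about stability. For TRGJ1 and TRGJ4 it measures the number of listed V partners rather than use. Centring gave TRGV1 log2 -0.030, the coarsest library's pseudocount TRGV3 log2 -0.086, and dropping pairs under 0.990% a summed TRGJ2 and TRGJ4 share of -0.160 percentage points. The cause of the other turns was not tested.

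Leaving out 1 library, or both numbered 1, gave these ranges of log2 fold change: TRGV1 -0.24 to 0.22, TRGV3 -1.02 to 1.19, TRGJ2 -0.070 to 0.11 and TRGJ4 -0.21 to 0.25. For pairs they were -1.34 to 0.60 (TRGV2 with TRGJ1), -0.16 to 0.024 (TRGV2 with TRGJ2), -1.56 to 0.75 (TRGV1 with TRGJ1) and -0.25 to 0.44 (TRGV1 with TRGJ4). TRGV2, TRGV1 with TRGJ2 and TRGV2 with TRGJ4 kept their sign, as did the summed share of the 3 V segments and the TRGV2 share of TRGJ2. Differences in percentage points ranged from -5.17 to 4.24 for TRGJ2 with TRGJ4, -7.08 to 5.26 for pairs across cassettes, -9.92 to 11.4 for the TRGJ4 share of TRGV1, -3.69 to 8.21 for the TRGJ2 share of TRGV2, -9.59 to 3.53 for the TRGJ1 share of the 3 V segments, and -2.11 to 10.6 for the TRGV1 share of TRGJ4. The contrasts within libraries ranged from -2.44 to 0.570 (TRGV1 less TRGV4), 10.0 to 15.4 (TRGJ1 less TRGJ4), 61.6 to 70.1 (TRGJ4 share, TRGV1 less TRGV2), 58.4 to 64.9 (TRGJ2 share, TRGV2 less TRGV1) and 40.5 to 50.5 (TRGJ4 less TRGJ2 within TRGV1); with 5 libraries the smallest exact p is 0.0625, so none of them could pass. Where a genotype was left with 2 libraries, limma pooled the spread over both genotypes.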
